A study of Mus musculus with 18 samples.

Results

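The sperm-egg fusion genes examined here are 10 genes listed for the binding and fusion of sperm and egg, some of them as relatives of Izumo1. They are Izumo1, Izumo2, Izumo3, Izumo4, Spaca6, Tmem95, Dcst1, Dcst2, Crisp2 and Spesp1. They were chosen by name, and all 10 were found among the 54232 genes of the count table. Their levels were measured by RNA-seq in round spermatids (RS), the haploid germ cells that follow meiosis, from 3 genotypes of mice aged 75 to 85 days. Each genotype had 6 libraries, 18 in all. WT mice are wild type. GRTH-KO (KO) mice lack Ddx25, which encodes the testicular RNA helicase GRTH. GRTH-KI (KI) mice carry a human GRTH gene with a missense mutation and lack the phosphorylated protein, pGRTH. The authors report that the non-phosphorylated form remains in KI. The deletion and the knock-in are carried by the whole animal, and no treatment was given to any group. RS were isolated by sedimentation in a BSA gradient after digestion with collagenase and trypsin, so that other testis cells can remain in a preparation. Males of both mutant genotypes are sterile, with spermatids that stop before elongation, and no source used here gives the mixture of spermatid steps in each gradient fraction.

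Fertilization ends with the fusion of 2 plasma membranes. IZUMO1 on the equatorial segment of an acrosome-reacted sperm binds its receptor JUNO (Izumo1r) on the egg, and further sperm membrane proteins, among them TMEM95, SPACA6, DCST1 and DCST2, are needed for the bound cells to fuse. CRISP2 and SPESP1 are proteins of the acrosome and the equatorial segment with roles in binding or fusion. The transcripts are made in spermatids long before the proteins act, and many spermatid mRNAs are stored for later translation.

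Library totals ran from 18766971 to 26776555 assigned counts. Ddx25, the targeted gene, was at 537 to 606 CPM (counts scaled to library size, TMM-normalised) in WT and at 47.7 to 90.8 CPM in KO. It was at 0.0456 to 0.518 CPM in 5 KI libraries, counted on the mouse annotation, which does not hold the human gene. In the library labelled KI 4 it was at 56.9 CPM, within the KO range. The library labelled KI 4 was also closer over all genes to KO 2 than any other pair of libraries was to each other. All KI values below are therefore given with all 6 KI libraries and, where a call or value turns on it, without KI 4. Within genotypes, WT 1 and 2, WT 3 and 4, WT 5 and 6, KO 4 and 5, KI 1 and 2, and KI 3 and 5 were closer to each other than the other pairs. When these close libraries were summed and KI 4 was left out, 3 WT, 5 KO and 3 KI samples remained. No source used here says which libraries came from separate animals, so p-values measure the spread between libraries and are too small if the close pairs share one preparation. Among markers, 7 of 7 round spermatid genes were detected above the filter on low counts, with summed levels of 711 to 1170 CPM in WT, 593 to 1213 in KO and 582 to 780 in KI. Of these, 1 of 7 fell in KO and 3 of 7 in KI, against 13.5% and 15.4% of all tested genes. Late spermatid markers such as Prm1 and Tnp2 fell past 1 log2 unit in 9 of 9 cases in both mutants, against 1.13% of all tested genes in KO and 1.43% in KI. According to the authors, Prm2 and Tnp2 are already transcribed in RS and translated later, so the level of this list is no measure of later cells. All 8 Leydig cell markers rose in both mutants (7 of 7 tested without KI 4), where 16.4% of all tested genes rose in KO and 16.1% in KI. Their summed levels were 11.03 to 23.3 CPM in WT, 35.0 to 61.4 in KO and 14.8 to 77.8 in KI. Spermatocyte markers summed to 1098 to 1582 CPM in WT, 1446 to 1906 in KO and 1306 to 1831 in KI, and spermatogonia markers to 56.3 to 69.0, 63.0 to 103 and 59.0 to 108 CPM. Sertoli, macrophage, endothelial or peritubular and blood markers summed to at most 24.3, 15.3, 9.82 and 2.92 CPM in any library. No marker of these other cell types was at 3 counts or fewer in every library. The part of such cells in the results below was not tested, also where a marker sum is given beside a result.

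Of the 10 genes, 9 had an entry in the RefSeq table of start sites (build GRCm38.p6), all but Izumo4. The stretches shown are those before the start of the 4 genes whose transcripts changed (Izumo2, Izumo3, Tmem95 and Crisp2), that before Izumo1, which did not pass the test, and the 65 bases between the RefSeq starts of Dcst1 and Dcst2, which are read away from each other. Each is written 5′ to 3′ on the strand named, and capitals mark TGACGTCA, the full cAMP response element, or TATAA, on either strand.
Izumo1, chr7:45621711-45621810, plus strand: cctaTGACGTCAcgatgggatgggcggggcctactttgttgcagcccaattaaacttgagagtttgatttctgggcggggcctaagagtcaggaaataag
Izumo2, chr7:44708630-44708729, plus strand: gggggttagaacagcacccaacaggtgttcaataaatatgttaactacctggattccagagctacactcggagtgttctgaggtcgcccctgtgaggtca
Izumo3, chr4:92147235-92147321, minus strand: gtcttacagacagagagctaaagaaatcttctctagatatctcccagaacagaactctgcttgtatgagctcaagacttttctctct
Tmem95, chr11:69878056-69878155, minus strand: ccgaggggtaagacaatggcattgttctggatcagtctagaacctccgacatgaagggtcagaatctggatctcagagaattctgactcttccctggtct
Crisp2, chr17:40794147-40794246, minus strand: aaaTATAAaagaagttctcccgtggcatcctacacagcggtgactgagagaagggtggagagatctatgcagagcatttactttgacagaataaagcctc
Dcst1-Dcst2 gap, chr3:89365254-89365318, plus strand: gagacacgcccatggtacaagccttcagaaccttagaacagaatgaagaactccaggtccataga
In the 250 bases before the start, both strands read, TGACGTCA was found in Izumo1 alone among the 9 genes, against 1.55% of all 32851 promoters in the table. Its core, TGACG, which overlaps the full motif, was found in Izumo1 and, outside the stretch shown, in Tmem95, against 17.8% of all promoters. TATAA was found in Crisp2 alone, against 22.8%. In GENCODE, Crisp2 runs from 40764020 to 40807003 on the minus strand, so its RefSeq start and the stretch shown lie inside that span. Izumo2 and Izumo1 lie 0.902 Mb apart on chromosome 7 (Izumo2 at 44708742 to 44719844, Izumo1 at 45621811 to 45628823, GRCm38), and Dcst1 and Dcst2 are read away from each other on chromosome 3. In GENCODE, Dcst2 (89361975 to 89377549) starts 3278 bases inside Dcst1 (89350219 to 89365253) on the opposite strand, and their exons share 0 bases. The other members lie alone on chromosomes 4, 9, 10 and 11, or 22.9 Mb apart on chromosome 17 in the case of Spaca6 and Crisp2.

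All 10 transcripts were present in WT RS, and the member with the fewest counts, Tmem95, had 253 to 387 a library. Expressed per kilobase of exon (RPKM), Crisp2 stood at 739 ± 171 RPKM (SD, n = 6) and its lowest WT library was above the highest library of every other member. Izumo2 followed at 111 ± 23.1 RPKM and Spesp1 at 89.7 ± 10.8 RPKM, and these 2 overlapped. Izumo3 stood at 57.4 ± 16.6 RPKM, Izumo4 at 38.8 ± 6.37 RPKM and Dcst2 at 33.7 ± 7.12 RPKM. Tmem95 stood at 27.6 ± 4.51 RPKM, Dcst1 at 25.7 ± 6.31 RPKM and Izumo1, the gene of the one known sperm ligand of JUNO, at 15.6 ± 4.97 RPKM. Each gene from Izumo2 to Dcst1 in this order overlapped the next one in the range of its WT libraries. Within single WT libraries, Izumo2 stood above Spesp1, Spesp1 above Izumo3, Dcst2 above Tmem95 and, on this scale, Dcst1 above Izumo1 in all 6. The order of Izumo3 and Izumo4, of Izumo4 and Dcst2, and of Tmem95 and Dcst1 changed between libraries and is not fixed by these data. Spaca6 was the lowest member at 4.11 ± 0.449 RPKM and did not overlap Izumo1. The Spaca6 level is divided by 7067 bases of exon from 16 annotated transcripts, the greatest length of the 10, and a gene whose spermatids use a shorter transcript is understated on this scale. The Crisp2 level is divided by 1825 bases, where another GENCODE release (M21) gives 2818 bases of exon. The Izumo1 level is divided by 2992 bases, of which 654 are shared with Rasip1 on the same strand and could not be counted. Izumo1 is therefore understated on this scale, and its order with Dcst1 is not fixed by these data.

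**Figure D1:**
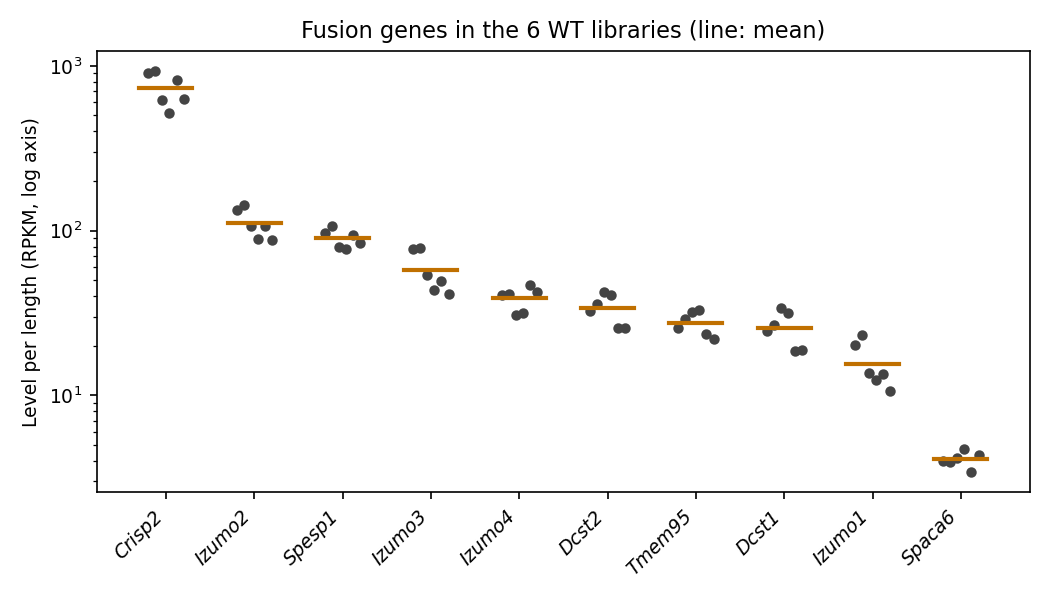
Levels per exon length (RPKM, logarithmic axis) of the 10 fusion genes in the 6 WT libraries; points are libraries and the line is their mean. Crisp2 lies alone at the top with 739 RPKM, Spaca6 alone at the bottom with 4.11 RPKM, and the 8 genes between form a chain of overlapping neighbours.

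The first question was whether the fusion genes fall with the loss of GRTH or of pGRTH. None of the 10 changed past 1 log2 unit in KO or in KI by edgeR's glmTreat test (adjusted p under 0.1), with 0 at an unadjusted p under 0.05 and 0 by DESeq2. In KO, 1.13% of all tested genes were lower and 0.598% higher past 1 log2 unit, and in KI 1.43% and 0.522%. Against any change at all, 3 of the 10 fell and 1 rose in KO by edgeR's quasi-likelihood test, where 13.5% of all tested genes fell and 16.4% rose. In KI the counts were again 3 lower and 1 higher, against 15.4% and 16.1%. Without KI 4 they were 4 lower and 1 higher, against 15.8% and 14.5%. The 3 that fell in both mutants were Izumo2, Izumo3 and Crisp2, and the 1 that rose in both was Tmem95. Both comparisons use the same WT libraries. The median log2 fold change of the 10 genes was -0.14 in KO and -0.21 in KI, beside 0.03 and 0.05 over all tested genes and -2.14 and -2.41 over the 9 late spermatid markers. In bulk preparations, fewer cells of the stage that makes a transcript and less transcript per cell cannot be told apart.

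**Figure D2:**
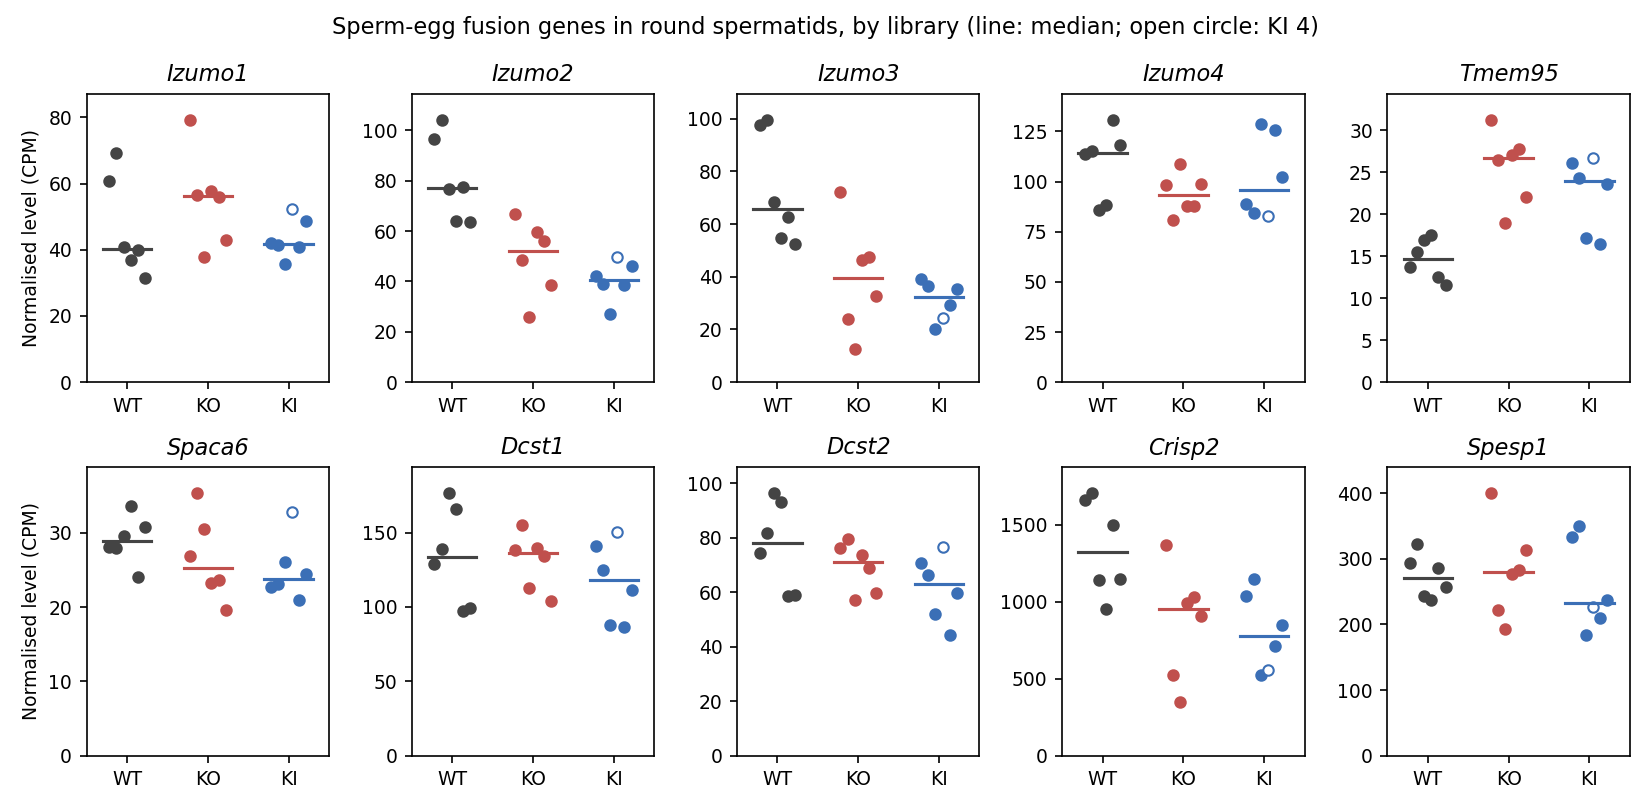
Normalised level (CPM, linear axes from 0) of each fusion gene in every library of WT, KO and KI; lines are group medians and the open circle is the library labelled KI 4. Izumo2 and Izumo3 lie lower in every KI library than in any WT library, Tmem95 lies higher in every KO library than in any WT library, and the other panels overlap.

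**Figure D3:**
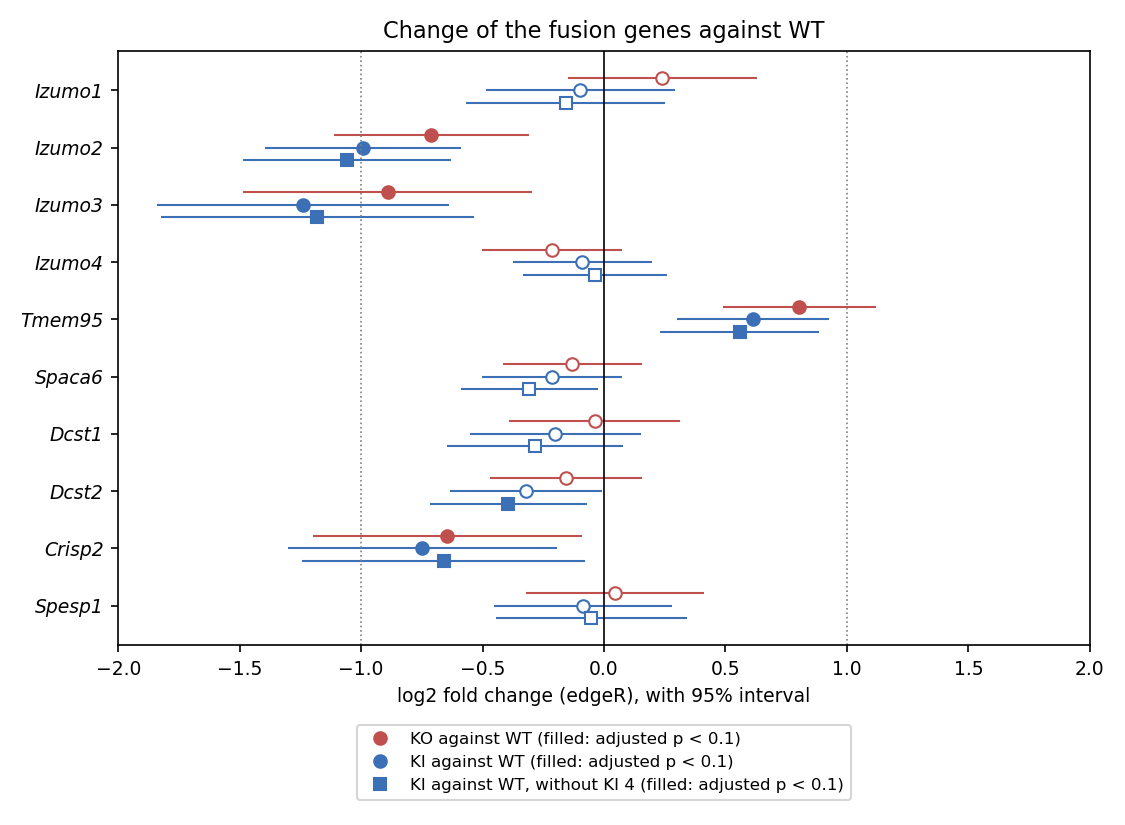
Log2 fold change against WT of each fusion gene with its 95% interval, for KO, for KI and for KI without KI 4; filled symbols passed adjusted p under 0.1 for any change, and dotted lines mark 1 log2 unit. Izumo2, Izumo3 and Crisp2 are filled on the left in all 3 comparisons, Tmem95 on the right in all 3, and Dcst2 only without KI 4.

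Izumo2 encodes a relative of IZUMO1 that shares its Izumo domain. Its level ran from 63.5 CPM over a median of 77.2 to 104 CPM in WT, from 26.0 over 52.2 to 66.7 CPM in KO, and from 27.0 over 40.5 to 49.8 CPM in KI. All 6 KI libraries were below all WT libraries, while 1 KO library (KO 1) reached the lower WT libraries. The log2 fold change was -0.71 in KO (SE 0.19, edgeR adjusted p = 0.00947) and -0.99 in KI (SE 0.19, adjusted p = 5.79e-04). Without KI 4 the KI value was -1.06. With the close libraries summed, the fall was still called, at -0.77 in KO (adjusted p = 0.0511) and -0.98 in KI (adjusted p = 0.0377).

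Izumo3, which the mouse needs to form a normal acrosome, had the lowest fold change of the 10. It ran from 52.4 over 65.5 to 99.6 CPM in WT, from 12.6 over 39.5 to 72.1 CPM in KO, and from 20.2 over 32.2 to 39.2 CPM in KI. The KI libraries again lay below every WT library, with KI 3, KI 4 and KI 5 the lowest, and the KO libraries were spread from KO 3 and KO 2 at the bottom to KO 1 inside the WT range. These 5 lowest mutant libraries had the highest shares of mitochondrial ribosomal RNA in their genotypes, 21.3% and 17.4% of counts in KO 3 and KO 2 and 15.3% to 17.5% in KI 3, KI 4 and KI 5, and the part of this in the result was not tested. The log2 fold change was -0.89 in KO (SE 0.29, edgeR adjusted p = 0.0271) and -1.24 in KI (SE 0.29, adjusted p = 0.00279). The KI value without KI 4 was -1.18. With the close libraries summed, the values kept their size, at -0.96 and -1.12, but the adjusted p rose to 0.119 and 0.132 and the fall was no longer called in either mutant. Izumo2 and Izumo3 were the only members whose KI and WT libraries did not overlap, 2 of 10 lower and 0 higher, against 7.9% lower and 5.97% higher over all tested genes. In KI 3, KI 5 and KI 6, Izumo2 was at 27.0 to 46.3 CPM and Izumo3 at 20.2 to 35.3 CPM, below all WT libraries. The Leydig marker sums of these KI libraries were 14.8 to 21.5 CPM. They lay below WT 6 (23.3 CPM) but above every other WT library (11.03 to 13.4 CPM). KI 3 and KI 5 are a close pair, and the part of Leydig cells in the Izumo2 and Izumo3 levels was not tested.

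Izumo1 itself ran from 31.6 over 40.4 to 69.2 CPM in WT, from 37.8 over 56.3 to 79.3 CPM in KO, and from 35.8 over 41.7 to 52.3 CPM in KI. WT 1 and WT 2, a close pair, were the high WT libraries at 60.7 and 69.2 CPM. The log2 fold change of 0.24 in KO (95% interval -0.15 to 0.63) and of -0.10 in KI (-0.48 to 0.29) did not pass the test, with edgeR adjusted p of 0.402 and 0.764. The last exons of Izumo1 share 654 bases with Rasip1 on the same strand, where a read cannot be assigned to either gene, and Rasip1 itself had only 33 to 68 counts a library. Izumo4 was at 85.7 to 131 CPM in WT, 80.7 to 109 CPM in KO and 82.8 to 129 CPM in KI. Its log2 fold change was -0.21 in KO (-0.50 to 0.07) and -0.09 in KI (-0.38 to 0.20). The groups overlapped, although 4 of 6 WT libraries, at 114 to 131 CPM, lay above the highest KO library.

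Tmem95, a single-pass membrane protein of the sperm head that is needed for fusion but not for binding, was the member that rose. It ran from 11.6 over 14.6 to 17.5 CPM in WT, from 18.9 over 26.7 to 31.3 CPM in KO, and from 16.4 over 23.99 to 26.7 CPM in KI. Every KO library was above every WT library, which held for 1 of 10 members in this direction and 0 in the other, against 6.62% higher and 6.44% lower over all tested genes. In KI, only KI 3 and KI 5, a close pair, reached into the WT range, at 17.1 and 16.4 CPM. The log2 fold change was 0.80 in KO (SE 0.15, edgeR adjusted p = 4.32e-04) and 0.61 in KI (SE 0.15, adjusted p = 0.00424). Without KI 4 the KI value was 0.56, and with the close libraries summed the values were 0.77 (adjusted p = 0.0178) and 0.61 (adjusted p = 0.0963). The 2 KI libraries that reached the WT range also had the lowest Leydig marker sums of KI, 19.7 and 14.8 CPM. These were still above every WT library but WT 6 (11.03 to 13.4 CPM in the others). KI 6 had a sum of 21.5 CPM, close to that of KI 3, and a Tmem95 level of 23.6 CPM. The part of Leydig cells in the Tmem95 levels was not tested. Kctd11, which ends just upstream of Tmem95 on the same strand, had 0 to 4 counts in every library.

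The other membrane proteins needed at the fusion step did not pass the test with all libraries. Spaca6, an immunoglobulin-domain protein structurally related to IZUMO1, was at 24.1 to 33.6 CPM in WT, 19.6 to 35.3 CPM in KO and 20.96 to 32.8 CPM in KI. Its log2 fold change was -0.13 in KO (95% interval -0.42 to 0.16) and -0.21 in KI (-0.50 to 0.07). The highest KI library was KI 4, and without it the KI range was 20.96 to 26.1 CPM and the log2 fold change -0.31, with an edgeR adjusted p of 0.11. Mir99b, Mirlet7e and Mir125a, the microRNA genes inside Spaca6, had 0 to 3 counts in these libraries, whose kit does not target small RNAs.

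Dcst1 and Dcst2 encode a pair of related multi-pass membrane proteins of the DC-STAMP type that act together. Dcst1 was at 97.0 to 177 CPM in WT, 104 to 155 CPM in KO and 86.3 to 150 CPM in KI. Dcst2 was at 58.6 to 96.3 CPM in WT, 57.0 to 79.5 CPM in KO and 44.4 to 76.7 CPM in KI. In both genes WT 5 and WT 6 were the lowest WT libraries and KI 3 and KI 5 the lowest KI libraries. The log2 fold change of Dcst1 was -0.04 in KO (95% interval -0.39 to 0.31) and -0.20 in KI (-0.55 to 0.15). That of Dcst2 was -0.16 in KO (-0.47 to 0.16) and -0.32 in KI (-0.64 to -0.01, edgeR adjusted p = 0.129). Without KI 4 the Dcst2 value was -0.39 and passed the test (adjusted p = 0.0727), which makes the fourth lower member in that comparison. It did not pass with the close libraries summed, at -0.36 (adjusted p = 0.361). Gm10702, a pseudogene on the opposite strand within Dcst1, had 6 to 27 counts, and the counting used strand.

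Crisp2, a cysteine-rich secretory protein of the acrosome and tail that binds the egg surface, was the most abundant member and the one whose call was least firm. It ran from 951 over 1320 to 1703 CPM in WT, from 350 over 951 to 1369 CPM in KO, and from 525 over 779 to 1147 CPM in KI. The 2 lowest KO libraries were KO 3 and KO 2, at 350 and 523 CPM, and the other 4 lay between 909.5 and 1369 CPM. In KI the lowest were KI 3, KI 4 and KI 5. These are again the libraries with the high shares of mitochondrial ribosomal RNA, against 7.07% to 11.5% in the rest of KO and 7.73% to 11.4% in the rest of KI. The part of this in the result was not tested. The log2 fold change was -0.65 in KO (SE 0.27, edgeR adjusted p = 0.0867) and -0.75 in KI (SE 0.27, adjusted p = 0.0443). Without KI 4 the KI value was -0.66 (adjusted p = 0.0948). The KO call was lost on leaving out WT 1, WT 2, WT 5, KO 2, KO 3, KO 6 or KI 6, with log2 fold changes of -0.66 to -0.48 and adjusted p of 0.1 to 0.186, and both calls were lost with the close libraries summed (adjusted p = 0.219 in KO and 0.389 in KI). Spesp1, a protein of the equatorial segment where fusion starts, was at 237 to 322 CPM in WT, 193 to 400 CPM in KO and 184 to 350 CPM in KI. Its log2 fold change was 0.04 in KO (95% interval -0.32 to 0.41) and -0.09 in KI (-0.45 to 0.28).

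The second question was whether loss of the gene and loss of the phosphorylated form differ in these genes. None of the 10 differed between KI and KO by edgeR (0 at an unadjusted p under 0.05 and 0 by DESeq2), where 0.0997% of all tested genes were called in either direction. Without KI 4 the count was again 0, against 0.522%. With all libraries, the difference furthest from 0 was that of Izumo3, -0.35 on the log2 scale (95% interval -0.94 to 0.25), followed by Izumo1 at -0.34 (-0.73 to 0.05) and Izumo2 at -0.28 (-0.68 to 0.12). For Crisp2 it was -0.10 (-0.65 to 0.45). Without KI 4, Izumo1 was furthest at -0.40 (-0.81 to 0.01), followed by Izumo2 at -0.35 (-0.77 to 0.07) and Izumo3 at -0.29 (-0.92 to 0.34). With all libraries, the intervals of Izumo4, Spaca6, Tmem95, Dcst1, Dcst2 and Spesp1 lay within 0.6 log2 units of 0. Differences of these sizes were not resolved with 6 libraries a group.

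Ratios of counts between members within one library do not depend on how libraries are scaled. The pairs described were chosen after the values were seen and were given no test. There were 1.51 to 2.01 Izumo2 counts for each Izumo1 count in WT, with a median of 1.81, against 0.688 to 1.03 in KO and 0.754 to 1 in KI. Izumo3 to Izumo1 was 1.44 to 1.68 in WT, against 0.334 to 0.909 in KO and 0.464 to 0.933 in KI. No mutant library reached the WT range in either ratio. Over all tested genes, 7.05% in KO and 5.65% in KI had a ratio to Izumo1 that lay below WT without overlap. Tmem95 to Dcst2 was 0.176 to 0.214 in WT, 0.332 to 0.411 in KO and 0.331 to 0.395 in KI, again without overlap, against 5.36% and 7.92% of genes with a ratio to Dcst2 above WT without overlap. KI 3 and KI 5, which reached the WT range in the Tmem95 level, and KO 1, which did so for Izumo2 and Izumo3, lay with the other mutant libraries in these ratios.

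**Figure D4:**
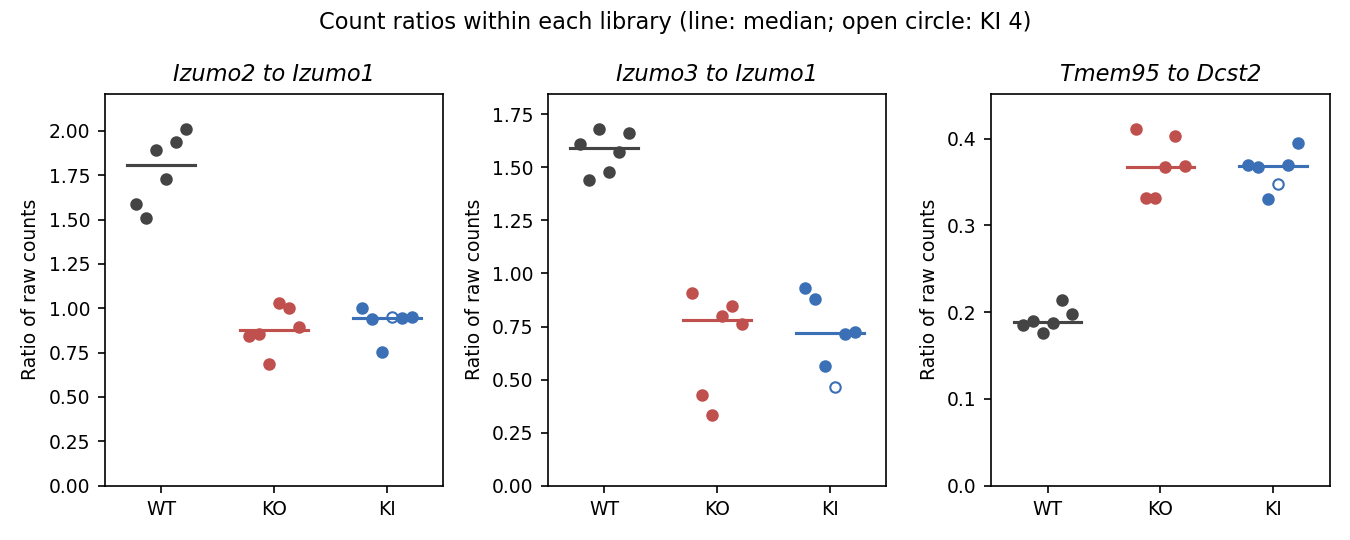
Ratio of raw counts of 2 members within each library for Izumo2 to Izumo1, Izumo3 to Izumo1 and Tmem95 to Dcst2 (linear axes from 0); lines are group medians and the open circle is KI 4. In each panel all 12 mutant libraries lie on one side of all 6 WT libraries, from 0.688 to 1.03 against 1.51 to 2.01 in the first.

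Some members varied together within genotypes and others did not. After subtraction of the genotype means, Dcst1 and Dcst2 had a Pearson's r of 0.979 over the 18 libraries, and Tmem95 followed them with r = 0.894 and 0.924. Crisp2 followed Izumo3 with r = 0.941 and Spesp1 with r = 0.911, and Izumo1 followed Izumo2 with r = 0.888. Izumo4 ran opposite to Dcst1 and Dcst2, with r = -0.911 and -0.89, and had a negative r with the other 7 members as well (-0.828 to -0.0799). Spaca6 had r = -0.634 with Crisp2, -0.466 with Spesp1 and -0.454 with Izumo3, 0.0428 with Izumo1 and 0.469 with Dcst1. The libraries with low Dcst1 were WT 5 and WT 6 in WT, KI 3 and KI 5 in KI, and KO 3 and KO 6 in KO. Their summed spermatocyte markers were 1451 and 1582 CPM in WT, 1831 and 1774 CPM in KI, and 1906 and 1540 CPM in KO, against 1098 to 1329, 1306 to 1608 and 1446 to 1597 CPM in the other libraries. These points share library depth, preparation and the close pairs, so the correlations are a description only.

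Other genes of sperm-egg fusion were read beside the 10. Of 9 listed, Izumo1r had 0 counts in every library, and 3 of the 8 tested fell and 2 rose in KO, while 5 fell and 1 rose in KI. Over all tested genes, 13.5% fell and 16.4% rose in KO and 15.4% and 16.1% in KI. None was called past 1 log2 unit by glmTreat, whatever its fold change. The genes called were few and are named after their values were seen. Llcfc1, a secreted protein needed at the fusion step, ran from 142 over 190 to 228 CPM in WT, from 40.0 over 96.9 to 140 CPM in KO, and from 56.8 over 82.0 to 95.3 CPM in KI. No mutant library reached the WT range, with log2 fold changes of -1.003 in KO (edgeR adjusted p = 0.0017) and -1.24 in KI (adjusted p = 2.18e-04). Of all tested genes, 6.44% in KO and 7.9% in KI lay below WT without overlap. 4930451I11Rik, the gene of the fusion-facilitating membrane protein FIMP, fell by 0.89 and 1.31 on the log2 scale. 1700029I15Rik, whose product FREY1 holds IZUMO1 in the endoplasmic reticulum membrane of spermatids, fell by 0.41 and 0.63. Eqtn, a gene of the acrosomal membrane protein equatorin, fell by 0.42 in KI and Cd46, a complement regulator of the acrosomal membrane, by 0.59 in KI. The tetraspanin genes Cd9 and Cd81, known for the egg side of fusion, were low in these cells at 0.743 to 2.96 and 2.10 to 6.89 CPM, and Cd9 rose in both mutants while Cd81 rose in KO. Tmem81, whose product forms a complex with IZUMO1 and SPACA6, was at -0.44 in KI (adjusted p = 0.16) and passed the test without KI 4 at -0.62 (adjusted p = 0.0377), which makes 6 lower in KI.

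Binding to and passage through the egg coat is the step before fusion. Of 22 genes listed for it, 4 fell and 0 rose in KO, and 9 fell and 0 rose in KI, against the same shares over all tested genes, with median log2 fold changes of -0.13 and -0.38 and none called past 1 log2 unit by glmTreat. Without KI 4, 8 fell in KI, as Spaca3 no longer passed (-0.48, adjusted p = 0.116). The 4 lower in KO were Spam1, the sperm hyaluronidase, Zp3r, Prss37 and Adam1a, and all 4 were also lower in KI. Spam1 had the lowest value, -0.76 in KO and -1.04 in KI. Of 6 testis chaperones and processing enzymes of sperm surface proteins, 2 fell in each mutant, Ace and Calr3, and 0 rose. Without KI 4, Tpst2, a tyrosylprotein sulfotransferase gene, rose in KI by 0.50 (adjusted p = 0.0808). Ace, whose testis form is a peptidase of the sperm membrane, ran from 428 over 533 to 670 CPM in WT, from 81.1 over 204 to 240 CPM in KO, and from 134 over 173 to 194 CPM in KI. It was the one gene of these lists called past 1 log2 unit, in KI at -1.70 (edgeR glmTreat adjusted p = 0.0609), and it was not past it in KO at -1.54 (adjusted p = 0.307) or in KI without KI 4 at -1.68. Calr3, a chaperone of the sperm surface protein ADAM3, fell by 0.60 in KO and 0.83 in KI.

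**Figure D5:**
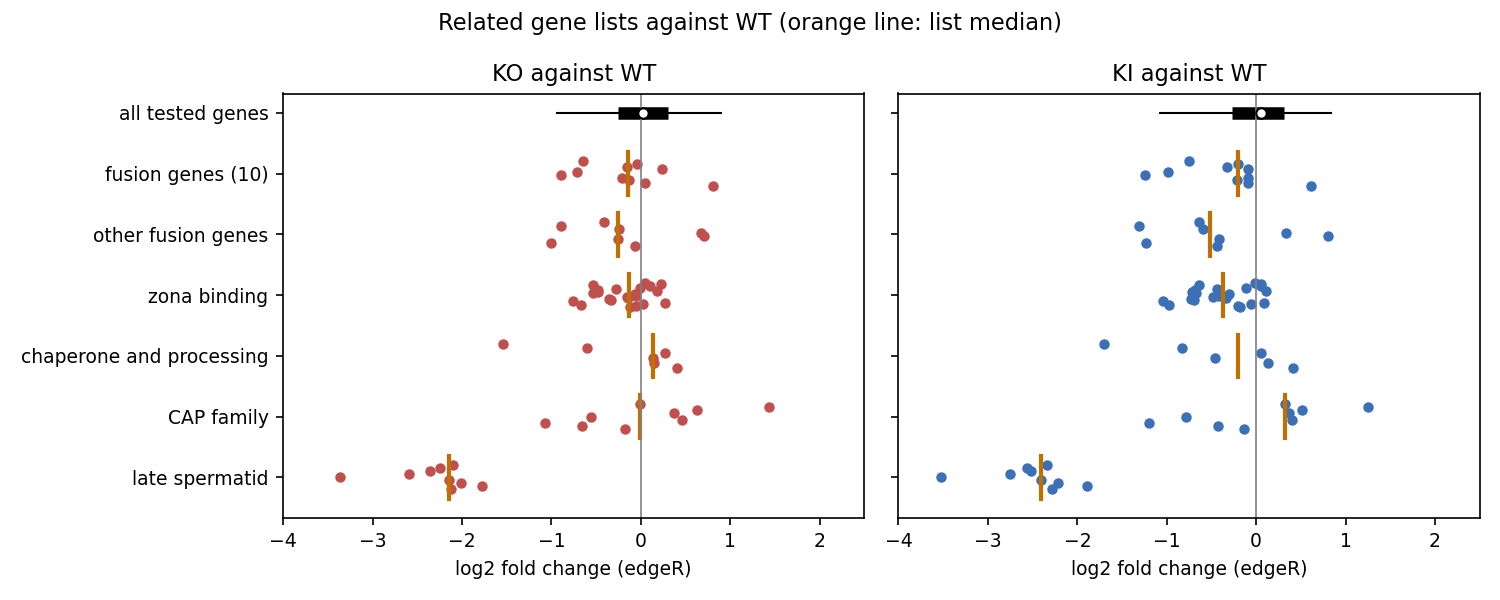
Log2 fold change against WT of every tested gene in the fusion list, 4 related lists and the late spermatid markers, in KO and KI; orange lines are list medians, and the black bar gives all tested genes (dot, median; thick bar, the middle 50%; thin line, the 5th to 95th percentile). The fusion genes have medians of -0.14 and -0.21, and the late spermatid markers lie apart from them at medians of -2.14 and -2.41.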

How the data were processed

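Total RNA of 18 RS samples (6 each of WT, KO and KI) was made into stranded libraries without polyA selection (Takara Pico kit). The authors trimmed reads with cutadapt 3.4, aligned them with STAR 2.7.8a to GRCm38 and deposited raw counts per gene from featureCounts 2.0.1, strand-specific and paired-end, on GENCODE M18, with duplicates kept. Multi-mapping reads and reads shared by overlapping genes on a strand were not counted. From these counts, TMM-normalised CPM and RPKM (CPM per kilobase of the exon length in the table) were computed. Gene positions, transcript numbers, neighbours and shared exon bases were read from GENCODE M21. Changes were tested over all 3 genotypes with edgeR 4.0.16 (R 4.3.3): filterByExpr left 21058 genes, quasi-likelihood F-tests gave changes of any size, and glmTreat (worst-case null) changes past 1 log2 unit, both with Benjamini-Hochberg adjustment over all tested genes and a threshold of 0.1. Without KI 4, 21257 genes were tested. The code was tested on simulated data. DESeq2 1.42.0 was an alternative. Depth was 18766971 to 26776555 counts, so that 3 counts correspond to 0.112 to 0.16 CPM. Figures were drawn with matplotlib 3.10.9.

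The members and gene lists were chosen with earlier results of these data known. Named genes were the members, Ddx25, genes overlapping a member or starting within 5 kb of its start, related genes past 1 log2 unit, and the 3 genes closest by Pearson's r of log2 CPM (prior count 2) to the lowest-changing and to the most abundant member; others are said to be chosen after their values were seen. Alternatives were another scaling, DESeq2, other filters, only the genotypes compared, a block for replicate number, a threshold of 0.05, leaving out each library, summing close libraries and, added after seeing the data, the interval form of glmTreat. Same-numbered libraries did not deviate together (7 of 18 pairs over 0.1). No column of the table was without a library.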

Additional observations from a re-analysis of the deposited data

How the results depend on the processing

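Counts of members called were recomputed under 27 alternatives. The 0 members past 1 log2 unit in KO or KI, the 1 member higher in each and the 0 members differing between KI and KO held under all of them. The 3 members lower fell to 1 in KO and to 1 in KI, Izumo2 in both, when close libraries were summed and KI 4 was left out, a setting with fewer samples. Leaving out 1 library at a time gave 2 to 3 lower in KO and 3 to 4 in KI. A fit with a replicate block gave 3 lower and 1 higher in KO and 4 lower and 1 higher in KI, where Dcst2 was added. Tmem95 and Izumo2 passed in both mutants under all 27. Without KI replicate 4, the chaperone count past 1 log2 unit in KI went from 1 to 0.

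Some log2 fold changes that did not pass the test changed sign, and the cause was not tested. Dcst1 in KO was -0.118 to 0.0485 with 1 library left out, positive without WT 3 (0.0485), WT 4 (0.0298) or KO 6 (0.0188). Spesp1 in KO was -0.082 to 0.133, negative without KO 1, and Izumo1 in KI was -0.159 to 0.0507, positive without WT 2. For KI against KO, Spaca6 was -0.178 to 0.0151 (positive without KO 2) and Crisp2 -0.264 to 0.0784 (positive without KO 1, and 0.0826 with close libraries summed). Of 810 values of single members under the alternatives, 786 kept direction and call, 12 lost a call, 4 gained one and 8 changed sign. Depth did not limit detection of any member, since the lowest count was 253.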

Other observations

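Genes near the members gave values of their own. Mob3a starts 207 bases from Izumo4 and is read in the opposite direction. It was at 3.39 to 7.26 CPM in WT, 7.13 to 11.5 CPM in KO and 7.27 to 10.5 CPM in KI, and it rose in both mutants, with log2 fold changes of 0.82 (edgeR adjusted p = 0.00166) and 0.72 (adjusted p = 0.00458), while the Izumo4 values of -0.21 and -0.09 did not pass the test. Gm10702, opposite to Dcst1, fell in KI at -0.70 (adjusted p = 0.0906) from 14 to 23 counts a library in WT to 6 to 17 counts. Fut1, Rhag and Mir6924, the other genes that start within 5 kb of a member, had at most 7, 3 and 4 counts in any library, and Gm25927, inside Spaca6, had 1 to 17 counts.

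The relatives of Crisp2 in the CAP superfamily moved in both directions. Of 14 listed, 9 were tested, 3 fell and 2 rose in KO, and 2 fell and 2 rose in KI (1 without KI 4). Over all tested genes, 13.5% fell and 16.4% rose in KO and 15.4% and 16.1% in KI. Named after their values were seen, Crispld1 rose by 1.43 and 1.25 on the log2 scale and Glipr1l2 by 0.46 and 0.40 (0.38 without KI 4, where it did not pass), while Glipr1l3 fell by 1.07 and 1.20, Glipr1l1, a gene of a sperm surface protein, by 0.56 and 0.78, and Glipr2 by 0.65 in KO. None was past 1 log2 unit by glmTreat. Crisp3 and Crisp4 had at most 1 count in any library.

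The genes whose log2 CPM lay closest to Izumo3 over the 18 libraries were Adam29 (Pearson's r = 0.993), Lrrc18 (0.992) and Iqcm (0.992). Those closest to Crisp2 were Ccdc189 (0.995), Sord (0.994) and Polb (0.994). Genotype, depth and close libraries are shared by all these points.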
